A study of Homo sapiens with 8 samples.

Results

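Immune checkpoint ligands are surface proteins through which a tumour cell holds back T cells, natural killer cells or macrophages. The genes described here are CD274, PDCD1LG2, CD276, PVR, NECTIN2, CD47 and LGALS9, with the complement shields CD55 and CD59 as related surface genes. They were chosen by name, as 9 of the 31461 genes listed in the deposited table, and all 9 were found in the table of each cell line. Of these, 8 reached 1 FPKM (fragments scaled by transcript length and library size) in at least 2 of the 8 libraries and were tested, and LGALS9 did not.

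PD-L1, the product of CD274, and PD-L2, the product of PDCD1LG2, bind the receptor PD-1 on T cells and dampen their activation. PVR and NECTIN2 bind the inhibitory receptor TIGIT and the activating receptor CD226, CD47 sends macrophages a signal against engulfment, and galectin-9, from LGALS9, binds TIM-3. CD55 speeds the decay of complement convertases and CD59 blocks the membrane attack complex. CD276, or B7-H3, is an inhibitory B7 family member whose mRNA is a reported target of the miR-29 family, which pairs with 3′ untranslated regions (UTRs) through its seed, bases 2 to 8.

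RNA of human lung cancer lines was sequenced in 8 libraries, 2 for each of 4 groups. The groups were A549 cells after transfection with miR-29a-3p, A549 cells with a control microRNA, H1299 cells with miR-29a-3p and H1299 cells with the control microRNA, all of them given as wild type in genotype. A549 was derived from a lung adenocarcinoma, H1299 from a lymph node metastasis of a large cell lung carcinoma. Potential targets of miR-29a-3p were what the study looked for. The dose of the microRNA and the time after transfection are not known here, and untransfected cells were not analysed here.

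An estimated 12200000 to 15600000 fragments lay behind each library, and 12021 to 12837 genes stood at 1 FPKM or more. Genes that tell the lines apart went against the labels. CDKN2A, which is deleted in A549, averaged 24.3 ± 0.72 FPKM in the A549-labelled controls and 0.0818 ± 0.0432 FPKM in the H1299-labelled controls (SD, n = 2 each). Of 7 tested genes known to be abundant in A549, 6 were lower in the A549-labelled controls than in the H1299-labelled ones and 0 were higher. Each library is therefore called by its label, and nothing below assigns a response to 1 line beyond that label. Leukocyte, fibroblast and endothelial markers summed to 0.184 to 2.78 FPKM per list in every library. The 9 leukocyte markers, 3 of them at 0 in all 8 libraries, summed to 0.968 to 1.03 FPKM after miR-29a-3p and 0.498 to 0.552 FPKM in the H1299-labelled controls, mostly from CD14. The 6 fibroblast markers summed to 2.76 to 2.78 FPKM and 1.29 to 1.37 FPKM in the same groups, mostly from LUM. Whether any such cells were present, or had a part in the changes below, was not tested. PTPRC, which marks leukocytes, was at 0.00675 FPKM or less in every library. Of 11 immune cell receptors of such ligands, PDCD1 and CTLA4 were not listed in the deposited table and counted as 0. The other 9 summed to 2.6 to 3.45 FPKM per library under the A549 label and 5.79 to 11.5 FPKM under the H1299 label. PVRIG was the highest of them in the A549-labelled libraries, at a mean of 1.32 FPKM after miR-29a-3p and 1.06 FPKM in the controls. SIRPA was the highest in the H1299-labelled ones.

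The members of the miR-29 family share 1 seed, shown here because the seed decides which messages they can pair with. The mature sequences are those of RefSeq (GRCh38.p14), read 5′ to 3′, with the seed in capitals. The gene of miR-29a lies on chromosome 7, and its mature 3p arm is at chr7:130876748-130876769 on the minus strand.
hsa-miR-29a-3p: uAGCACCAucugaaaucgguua
hsa-miR-29b-3p: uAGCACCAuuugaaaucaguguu
hsa-miR-29c-3p: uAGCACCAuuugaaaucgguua

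The longest annotated 3′ UTR of each gene (GENCODE release 29, GRCh38) was searched for the letters TGGTGCTA (an 8mer match), TGGTGCT (7mer-m8), GGTGCTA (7mer-A1) and GGTGCT (6mer), each match counted once under its longest form. CD276 held 1 8mer and 1 6mer in its 1562-base UTR. CD59 held 2 7mer-m8 matches in 7116 bases, and CD274 and NECTIN2 held 1 6mer each. PDCD1LG2, PVR, CD47, LGALS9 and CD55 held no match of these kinds. Among the 11632 tested genes with an annotated 3′ UTR, 3.45% had an 8mer, 16.4% an 8mer or 7mer-m8 and 34.2% any of the 4 kinds. The stretches below are the 22 bases that end opposite the first base of the microRNA, written as the transcript reads, with the matching bases in capitals. They are shown to give the letters and the place of each match. CD276, the gene with the 8mer, fell in both sets of libraries. CD59, with its 7mer-m8 matches, did not pass the test in either. Its A549-labelled miR-29a-3p libraries lay below both controls, with a log2 fold change of -0.45. Under the H1299 label they lay above both, with a log2 fold change of 0.40. Of all tested genes, 59.0% and 76.0% had groups that did not overlap in these comparisons. Whether any of these matches had a part in a change was not tested.
CD276 8mer, chr15:73714281-73714302, plus strand: ccccacccccaccaTGGTGCTA
CD276 6mer, chr15:73713868-73713889, plus strand: gtcagcactgtgttaGGTGCTg
CD59 first 7mer-m8, chr11:33708660-33708681, minus strand: acttagcattacctTGGTGCTc
CD59 second 7mer-m8, chr11:33705927-33705948, minus strand: tatatgatcagtgcTGGTGCTg
CD274 6mer, chr9:5468463-5468484, plus strand: atggagtatttgtaaGGTGCTt
NECTIN2 6mer, chr19:44888596-44888617, plus strand: gcaggaggtggggaaGGTGCTt

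In the A549-labelled libraries, PDCD1LG2, PVR and NECTIN2 rose after miR-29a-3p and CD276 fell, while CD274, CD47, CD55 and CD59 did not pass the test. Labelled H1299, PDCD1LG2, NECTIN2 and CD47 rose and CD276, PVR and CD55 fell, while CD274 and CD59 did not pass. The test was limma on log2(FPKM + 1) over all 14635 tested genes, a scale that understates the change of low genes, and a gene was called at an adjusted p under 0.05. Of the 8 tested genes, 4 were called in the A549-labelled libraries, against 16.0% of all tested genes, and 6 in the H1299-labelled libraries, against 50.0%. By direction, 3 rose and 1 fell in the A549-labelled libraries, where 7.30% of all tested genes rose and 8.66% fell. With the H1299 label 3 rose and 3 fell, where 25.1% of all tested genes rose and 24.8% fell. Groups of 2 libraries did not overlap for 5 of the 8 genes in the A549-labelled libraries, against 59.0% of all tested genes, and for 7 of 8 in the H1299-labelled ones, against 76.0%. The median log2 fold change of the 8 was 0.02 and 0.11 in the A549-labelled and H1299-labelled libraries, beside 0.00 over all tested genes in each. The RNA is from bulk cultures, where fewer cells that express a gene and less of its RNA per cell cannot be told apart.

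**Figure D1:**
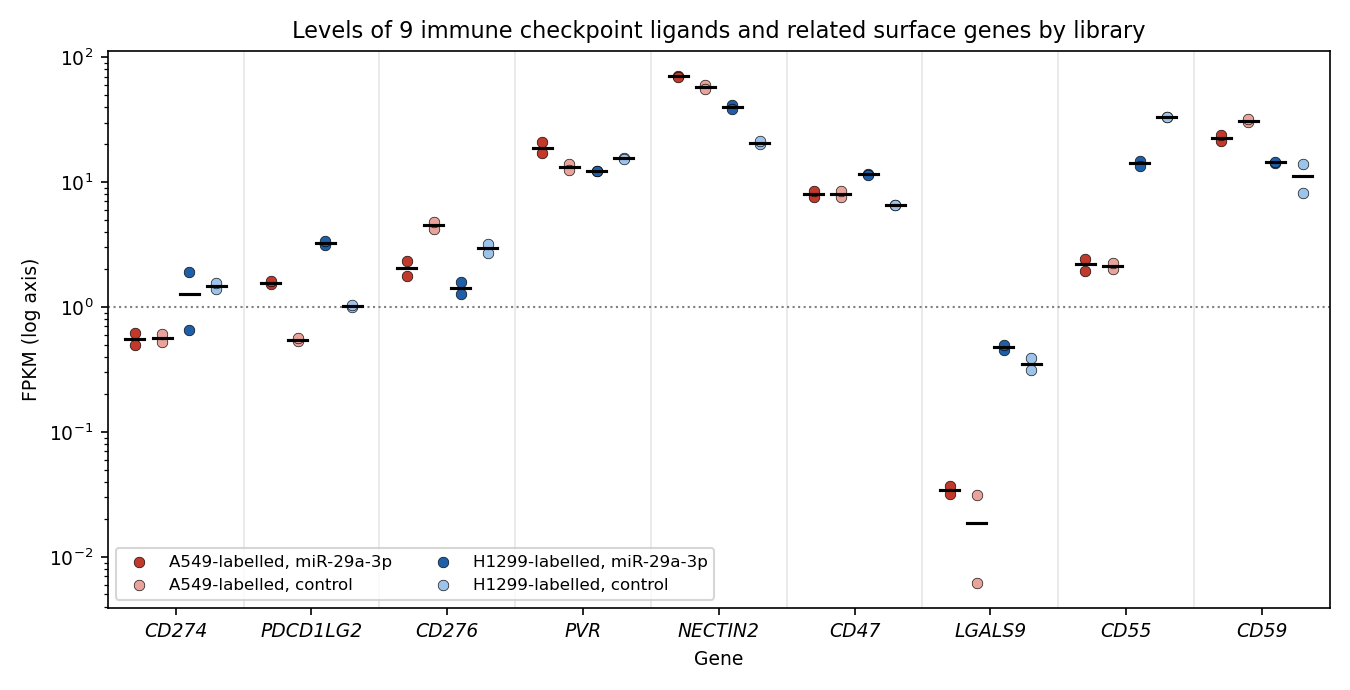
FPKM of the 9 genes in every library on a log axis, with miR-29a-3p left of control within each line label. Each point is 1 library, each bar the mean of 2, and the dotted line marks 1 FPKM. PDCD1LG2 lies higher and CD276 lower after miR-29a-3p under both labels, and CD55 stands at 32.9 and 33.5 FPKM in the H1299-labelled controls.

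CD276 (ENSG00000103855, chromosome 15, 73683966 to 73714518 on GRCh38, plus strand) fell in both sets of libraries. In the A549-labelled libraries it had 1.78 and 2.35 FPKM after miR-29a-3p, against 4.23 and 4.77 FPKM in the controls. Both treated libraries lay below both controls. The log2 fold change was -0.85 ± 0.12 (SE, adjusted p = 0.0075), and the mean FPKM after miR-29a-3p was 0.46 of that in the controls. It ranked among the lowest 0.765% of tested genes in that comparison. In the H1299-labelled libraries CD276 had 1.27 and 1.58 FPKM after miR-29a-3p, against 2.73 and 3.17 FPKM in the controls, again without overlap. There the log2 fold change was -0.70 ± 0.12 (SE, adjusted p = 0.0036), the ratio of mean FPKM was 0.483, and the rank was within the lowest 6.78%. The responses differed by -0.14 on the log2 scale, A549-labelled minus H1299-labelled, with a 95% interval of -0.56 to 0.27 (adjusted p = 0.55). Both calls held under each alternative in which CD276 was tested, with adjusted p up to 0.049 in the A549-labelled and 0.025 in the H1299-labelled libraries when 1 library was left out.

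Genes with an 8mer in the 3′ UTR had a median log2 fold change of -0.14 in the A549-labelled and -0.13 in the H1299-labelled libraries, over 401 genes, and genes with no match had 0.02 and 0.04, over 7658 genes. CD276 lay below the 5th percentile of the 8mer genes in the A549-labelled libraries, which was -0.75, and above it in the H1299-labelled ones, where it was -1.06. The genes with no match had shorter 3′ UTRs, with a median of 927 bases against 2922 bases for the 8mer genes. CD55, which fell further than CD276 in the H1299-labelled libraries, was among the genes with none of these letters in the annotated UTR. NECTIN2 rose in both sets of libraries with 1 6mer.

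**Figure D2:**
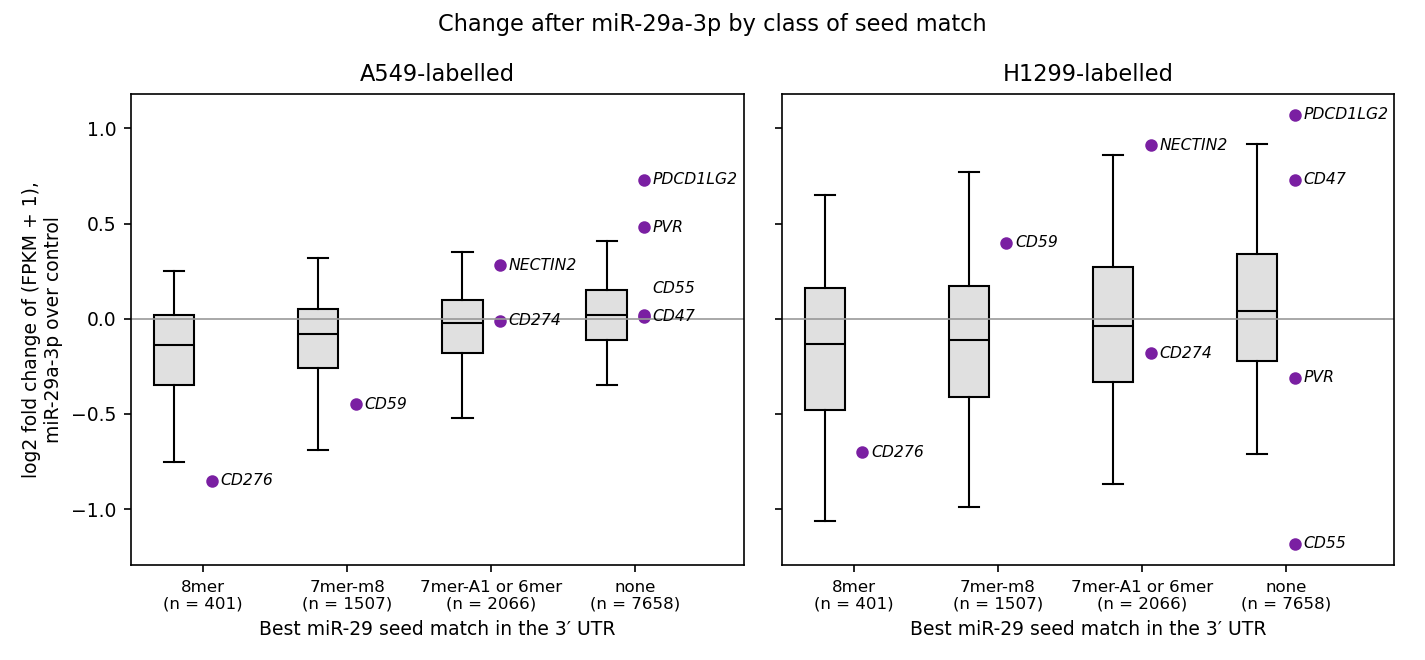
Log2 fold change of (FPKM + 1), miR-29a-3p over control, by the best miR-29 seed match in the 3′ UTR. Boxes give the median and quartiles and whiskers the 5th and 95th percentiles of all tested genes of a class, and purple points are the 8 tested surface genes. CD276 is the surface gene with an 8mer, and lies at -0.85 in the A549-labelled and -0.70 in the H1299-labelled libraries.

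Among the tested genes outside the set, COMMD2, ASAP2 and GID8 had the profiles nearest to that of CD276 over the 8 libraries, by Euclidean distance between log2(FPKM + 1) values centred on each gene. Their distances were 0.213, 0.313 and 0.315, where the median gene lay at 1.54. COMMD2 averaged 3.29 and 6.56 FPKM in A549-labelled miR-29a-3p and control libraries, and 2.46 and 4.05 FPKM in H1299-labelled miR-29a-3p and control libraries.

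The genes of PD-L1 and PD-L2 are neighbours on chromosome 9, CD274 (ENSG00000120217) at 5450503 to 5470566 and PDCD1LG2 (ENSG00000197646) at 5510570 to 5571254, both on the plus strand. PDCD1LG2 rose in both sets of libraries. It had 1.52 and 1.61 FPKM after miR-29a-3p in the A549-labelled libraries, against 0.530 and 0.561 FPKM in the controls. The H1299-labelled libraries had 3.13 and 3.36 FPKM after miR-29a-3p, against 1.0 and 1.04 FPKM in the controls. Treated and control libraries did not overlap under either label. The log2 fold change was 0.73 ± 0.063 (SE, adjusted p = 0.0013) in the A549-labelled and 1.07 ± 0.063 (SE, adjusted p = 5.2e-05) in the H1299-labelled libraries. As ratios of mean FPKM these were 2.87 and 3.18. Some 54 and 47 fragments stood behind the values after miR-29a-3p in the A549-labelled libraries and 16 and 17 behind the controls, by the estimated totals and the single annotated transcript of 2365 bases. Both calls held under each alternative in which the gene was tested.

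CD274 did not pass the test under either label. In the A549-labelled libraries it had 0.614 and 0.497 FPKM after miR-29a-3p, against 0.522 and 0.610 FPKM in the controls, with overlapping ranges. The log2 fold change there was -0.01, with a 95% interval of -0.59 to 0.57 (adjusted p = 0.99). That interval uses a spread estimated over all 4 groups, with an SE of 0.239. With the line fitted alone the SE was 0.0685, at the same change of -0.01. Labelled H1299, it had 0.651 and 1.90 FPKM after miR-29a-3p, against 1.39 and 1.55 FPKM in the controls. The treated libraries lay on either side of the controls, at an SD of 0.88 FPKM where the other groups had 0.0622 to 0.111. The log2 fold change of -0.18 had a 95% interval of -0.75 to 0.40 (adjusted p = 0.58). It was 0.23 (adjusted p = 0.12) without replicate 1 of the H1299-labelled miR-29a-3p libraries and -0.58 (adjusted p = 0.0078) without replicate 2, so its sign and its call rest on which of the pair is kept. PDCD1LG2 in the same libraries had 3.13 and 3.36 FPKM.

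The level of PDCD1LG2 relative to CD274 was higher after miR-29a-3p in every library than in any control of the same label. Their FPKM ratio was 2.48 and 3.23 in the A549-labelled miR-29a-3p libraries, against 1.02 and 0.920 in the controls. It was 4.81 and 1.77 in the H1299-labelled miR-29a-3p libraries, against 0.719 and 0.669 in the controls. In that last treated pair CD274 had 0.651 and 1.90 FPKM, a wider spread than that of PDCD1LG2.

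The transcription factor IRF1, which is known to induce PD-L1, rose in both sets of libraries. It averaged 6.08 ± 0.494 FPKM after miR-29a-3p and 2.86 ± 0.0321 FPKM in the controls labelled A549, and 7.58 ± 0.172 FPKM after miR-29a-3p and 3.82 ± 0.0526 FPKM in the controls labelled H1299 (SD, n = 2 each). The log2 fold changes were 0.87 (adjusted p = 0.00079) and 0.83 (adjusted p = 0.00013). Of 15 genes of interferon receptors, JAK kinases, STAT and IRF factors and their feedback, 5 rose and 1 fell in the A549-labelled libraries, with a median of 0.18, and 7 rose and 1 fell in the H1299-labelled libraries, with a median of 0.16. Over all tested genes, 7.30% rose and 8.66% fell in the A549-labelled libraries, and 25.1% rose and 24.8% fell in the H1299-labelled ones. Among the others were STAT3, which fell by 0.46 in the A549-labelled libraries (adjusted p = 0.0060), IRF9, which rose there by 0.41 (adjusted p = 0.023), and the H1299-labelled rises of STAT2 by 0.72 (adjusted p = 0.0013) and of the feedback inhibitor SOCS3 by 0.64 (adjusted p = 0.00042). The part of these genes in the change of PDCD1LG2 was not tested.

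The promoter of CD274 holds letters that interferon-responsive factors are known to read, and a stretch of it is shown because IRF1 rose where CD274 did not pass the test. Windows of 300 bases around the start sites in RefSeq (GRCh38.p14) were searched on both strands for a pair of GAAA runs with NN, any 2 bases, between them, the letters of an interferon-stimulated response element, and for TTCNNNGAA, those of a gamma-activated site. A window was found for 8 of the 9 genes. PDCD1LG2 had none, so its promoter was not searched. CD274 and LGALS9 held the spaced GAAA pair, which 3.57% of all 35116 windows hold, and CD274 and CD59 held TTCNNNGAA, which 7.66% hold. These shares count windows and not genes, and CD59 had 4 windows, CD276 had 2 and the other genes found had 1 each. The matches in CD274 begin at -208, -202 and -125 from the start site, of which the first pair are spaced GAAA pairs that overlap on the minus strand, and all are in capitals in the stretch of 152 bases below. A match of letters is not a bound site.
CD274 promoter, chr9:5450304-5450455, plus strand: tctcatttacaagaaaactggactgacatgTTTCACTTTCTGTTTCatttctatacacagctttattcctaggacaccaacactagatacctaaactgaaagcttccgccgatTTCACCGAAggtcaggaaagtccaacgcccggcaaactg

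PVR and NECTIN2, ligands of the same receptors, rose together in the A549-labelled libraries, while NECTIN2 rose and PVR fell in the H1299-labelled ones. NECTIN2 (ENSG00000130202, chromosome 19, 44846175 to 44889228, plus strand) had 70.6 and 69.6 FPKM after miR-29a-3p in the A549-labelled libraries, against 59.6 and 55.3 FPKM in the controls. Those labelled H1299 had 41.1 and 38.4 FPKM after miR-29a-3p, against 20.0 and 21.4 FPKM in the controls. Groups did not overlap under either label. The log2 fold change was 0.28 ± 0.060 (SE, adjusted p = 0.026) in the A549-labelled and 0.91 ± 0.060 (SE, adjusted p = 7.5e-05) in the H1299-labelled libraries. That of the A549-labelled libraries was no longer called without either miR-29a-3p library (adjusted p = 0.107 and 0.0885) or control 2 (0.115), if all 31461 genes were tested (0.0533), or if the line was fitted alone (0.0563). The H1299-labelled call held under every alternative run. Its exons share 128 bases with those of an antisense gene, AC011481.2, and the strand setting of the counting is not known here, so its values are uncertain to that extent.

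PVR (ENSG00000073008, chromosome 19, 44643798 to 44663583, plus strand), the poliovirus receptor, had 20.8 and 17.0 FPKM after miR-29a-3p in the A549-labelled libraries, against 14 and 12.5 FPKM in the controls. It had 12.3 and 12.2 FPKM after miR-29a-3p in the H1299-labelled libraries, against 15.7 and 15.3 FPKM in the controls. Both treated libraries lay above the controls under the A549 label and below them under the H1299 label. On the log2 scale PVR changed by 0.48 ± 0.098 (SE, adjusted p = 0.024) in the A549-labelled and -0.31 ± 0.098 (SE, adjusted p = 0.036) in the H1299-labelled libraries. The A549-labelled call was lost without miR-29a-3p replicate 1 (0.34, adjusted p = 0.065), control 1 (adjusted p = 0.055) or control 2 (adjusted p = 0.11), if all genes were tested (adjusted p = 0.057) or the line was fitted alone (adjusted p = 0.098). That of the H1299-labelled libraries was lost without any of the 4 (adjusted p = 0.096 to 0.13), if all genes were tested (adjusted p = 0.078) or the libraries were rescaled (adjusted p = 0.059). CEACAM19, whose exons share 121 bases with those of PVR on the same strand, had 1.76 and 1.69 FPKM after miR-29a-3p against 1.28 and 1.2 FPKM in the A549-labelled controls, and 3.53 and 3.43 FPKM after miR-29a-3p against 4.12 and 3.94 FPKM in the H1299-labelled controls. Its values moved in the directions of PVR (0.28, adjusted p = 0.024, and -0.17, adjusted p = 0.051), and whether fragments were shared between them was not tested.

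CD47 (ENSG00000196776, chromosome 3, 108043094 to 108091862, minus strand) had 7.58 and 8.47 FPKM after miR-29a-3p in the A549-labelled libraries, against 7.54 and 8.41 FPKM in the controls. These pairs overlapped, with a log2 fold change of 0.01 and a 95% interval of -0.16 to 0.18 (adjusted p = 0.96). After the same transfection of H1299-labelled cells, CD47 had 11.7 and 11.5 FPKM, against 6.59 and 6.53 FPKM in the controls. It rose there by 0.73 ± 0.071 on the log2 scale (SE, adjusted p = 0.00031), or 1.76 times in mean FPKM. SIRPA, the macrophage receptor of CD47, was itself detected under both labels. In the H1299-labelled libraries it had 10.6 ± 0.453 FPKM after miR-29a-3p and 5.55 ± 0.112 FPKM in the controls (SD, n = 2 each), and rose by 0.83 (adjusted p = 0.00015). With the A549 label SIRPA had 0.895 ± 0.108 FPKM after miR-29a-3p and 0.936 ± 0.0296 FPKM in the controls (SD, n = 2 each). Its log2 fold change there was -0.03 (adjusted p = 0.79).

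CD55 (ENSG00000196352, chromosome 1, 207321376 to 207386804, plus strand) fell in the H1299-labelled libraries, and on the log2(FPKM + 1) scale this was the largest called change among the 8 tested genes. As a ratio of mean FPKM, PDCD1LG2 changed further. The H1299-labelled libraries had 14.8 and 13.4 FPKM after miR-29a-3p, against 32.9 and 33.5 FPKM in the controls. All treated values lay below the controls. The ratio of mean FPKM was 0.425 and the log2 fold change -1.18 ± 0.088 (SE, adjusted p = 0.00012). The A549-labelled libraries had 2.42 and 1.96 FPKM after miR-29a-3p, against 2.01 and 2.25 FPKM in the controls. These pairs overlapped, and the log2 fold change of 0.02 had a 95% interval of -0.19 to 0.24 (adjusted p = 0.89). The profiles nearest to that of CD55 were those of AL365181.2, CDH4 and CREG1, at distances of 0.309, 0.344 and 0.356 where the median gene lay at 4.50. CREG1 averaged 7.55 and 7.42 FPKM in A549-labelled miR-29a-3p and control libraries, and 40.0 and 82.9 FPKM in H1299-labelled miR-29a-3p and control libraries.

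CD59 (ENSG00000085063, chromosome 11, 33703010 to 33736491, minus strand), which like CD55 is anchored in the membrane by a glycolipid, did not pass the test under either label. It had 21.3 and 23.7 FPKM after miR-29a-3p in the A549-labelled libraries, against 30.2 and 32.1 FPKM in the controls, without overlap. The H1299-labelled libraries had 14.3 and 14.6 FPKM after miR-29a-3p, against 13.9 and 8.20 FPKM in the controls. Control 2 stood far below control 1, at an SD of 4.06 FPKM where the other groups had 0.23 to 1.71, and the treated pair lay just above control 1. On the log2 scale the change was -0.45 ± 0.21 (SE, 95% interval -0.95 to 0.04, adjusted p = 0.19) in the A549-labelled and 0.40 ± 0.21 (SE, 95% interval -0.10 to 0.89, adjusted p = 0.16) in the H1299-labelled libraries. The A549-labelled value passed the test without either H1299-labelled control (adjusted p = 0.017 and 0.016) and with the line fitted alone (adjusted p = 0.047). The H1299-labelled value was 0.75 (adjusted p = 0.0021) without control 1 and 0.05 (adjusted p = 0.70) without control 2. Its exons share 629 bases with those of another gene model, AL049629.2, on the same strand, so the value is uncertain.

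LGALS9 (ENSG00000168961, chromosome 17, 27629798 to 27649560, plus strand) stayed under the filter in every library. It had 0.0371 and 0.0321 FPKM after miR-29a-3p in the A549-labelled libraries, against 0.00623 and 0.0310 FPKM in the controls, which is 3 estimated fragments or fewer per library. Labelled H1299, it had 0.455 and 0.494 FPKM after miR-29a-3p, against 0.311 and 0.390 FPKM in the controls. Treated libraries lay above the controls under both labels. LGALS9 was left out of the main test. With no filter on low values it was tested, and its change was not called under either label. Near-identical copies of the gene, LGALS9B and LGALS9C, can share its fragments, so its values are uncertain. LGALS9B had 0.121 and 0.190 FPKM after miR-29a-3p, against 0.0690 and 0.0660 FPKM in the H1299-labelled controls.

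**Figure D3:**
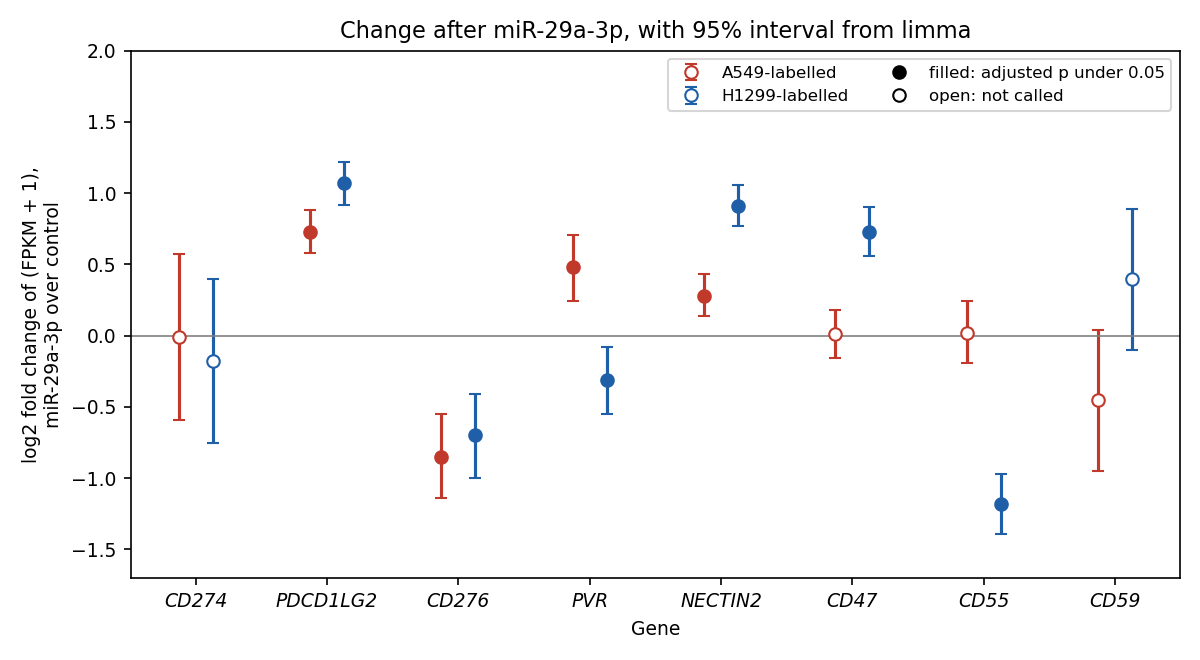
Log2 fold change of (FPKM + 1), miR-29a-3p over control, for the 8 tested genes, with 95% intervals from limma. Filled points passed an adjusted p under 0.05. CD276 lies below 0 and PDCD1LG2 above it under both labels, PVR changes sign between them, and CD47 and CD55 are called in the H1299-labelled libraries.

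The responses differed between the labels for 5 of the 8 tested genes, against 37.3% of all tested genes, with 2 more positive, where 18.1% of all were, and 3 more negative, where 19.2% were. On the log2 scale, A549-labelled minus H1299-labelled, the difference was 1.2 ± 0.12 for CD55 (SE, adjusted p = 0.00082), 0.79 ± 0.14 for PVR (SE, adjusted p = 0.0059), -0.73 ± 0.10 for CD47 (SE, adjusted p = 0.0025) and -0.63 ± 0.085 for NECTIN2 (SE, adjusted p = 0.0023). These 4 held under every alternative run. PDCD1LG2 had -0.34 ± 0.089 (SE, adjusted p = 0.025), which became -0.21 with a pseudocount of 0.1 (adjusted p = 0.315), had an adjusted p of 0.0517 if all genes were tested, and lost its call without any of 6 single libraries (adjusted p = 0.052 to 0.080), namely A549-labelled miR-29a-3p 1, both A549-labelled controls, H1299-labelled miR-29a-3p 2 and both H1299-labelled controls. CD59 had -0.85 ± 0.29 (SE, adjusted p = 0.063), with -1.2 (adjusted p = 0.0021) without H1299-labelled control 1, -0.50 (adjusted p = 0.022) without control 2 and an adjusted p of 0.0496 at a mean of at least 5 FPKM. CD274 had 0.17 ± 0.34 (SE, adjusted p = 0.73), and 0.57 (adjusted p = 0.025) without H1299-labelled miR-29a-3p replicate 2.

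The A549-labelled and H1299-labelled controls differed in 7 of the 8 tested genes, against 74.8% of all tested genes. Of these, 4 were higher in the A549-labelled controls, where 45.0% of all tested genes were, and 3 were lower, where 29.8% were. The libraries did not overlap for any of the 8, against 87.2% of all tested genes. The median of all tested genes was itself 0.17 higher in the A549-labelled controls on the log2 scale, and 0.05 after the libraries were rescaled. CD55 was the furthest apart, at 2.13 ± 0.176 FPKM labelled A549 and 33.2 ± 0.442 FPKM labelled H1299 (SD, n = 2 each), a log2 difference of -3.45 ± 0.088 (SE, adjusted p = 3e-07). NECTIN2 and CD59 were higher in the A549-labelled controls, by 1.43 ± 0.060 (SE, adjusted p = 2.2e-06) and 1.45 ± 0.21 (SE, adjusted p = 0.00069). CD276 was 0.48 higher there (adjusted p = 0.011), a call lost without A549-labelled control 2 (adjusted p = 0.061) or H1299-labelled control 1 (adjusted p = 0.062). CD47 was 0.25 higher (adjusted p = 0.018), close to the shift of the median gene, and 0.10 higher after rescaling (adjusted p = 0.23). Its call was also lost without A549-labelled control 2 or either H1299-labelled control (adjusted p = 0.060 to 0.093). PDCD1LG2 was 0.39 lower in the A549-labelled controls, a log2 difference of -0.39 (adjusted p = 0.0014), and CD274 had -0.66 (adjusted p = 0.042), which lost its call if all genes were tested (adjusted p = 0.094) and without any of the A549-labelled libraries or the H1299-labelled controls (adjusted p = 0.066 to 0.14). PVR had -0.22 (adjusted p = 0.086), and passed the test after rescaling (-0.37, adjusted p = 0.013) and without either A549-labelled miR-29a-3p library (adjusted p = 0.025 each).

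Ranked by mean FPKM, NECTIN2 stood first in 3 of the 4 groups and CD55 in the H1299-labelled controls. In the A549-labelled miR-29a-3p libraries the order was NECTIN2, CD59, PVR, CD47, CD55, CD276, PDCD1LG2, CD274 and LGALS9, and neighbours overlapped for CD55 and CD276. The A549-labelled controls had NECTIN2, CD59, PVR, CD47, CD276, CD55, CD274, PDCD1LG2 and LGALS9, with overlap between CD274 and PDCD1LG2. The H1299-labelled miR-29a-3p libraries had NECTIN2, CD59, CD55, PVR, CD47, PDCD1LG2, CD276, CD274 and LGALS9, with overlap between CD59 and CD55 and between CD276 and CD274. The H1299-labelled controls had CD55, NECTIN2, PVR, CD59, CD47, CD276, CD274, PDCD1LG2 and LGALS9, with no overlap between neighbours. PDCD1LG2 thus ranked above CD274 in both miR-29a-3p groups and below it in both control groups, though the A549-labelled controls overlapped.

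Beyond the 9 genes, ICAM1 rose and NCR3LG1 fell under both labels. Of 34 further genes, mostly of co-signalling and adhesion ligands but also of enzymes such as NT5E and receptors such as CD40, 24 were tested. In the A549-labelled libraries 1 rose and 1 fell, with a median of 0.02. With the H1299 label 12 rose and 3 fell, with a median of 0.24. Of all tested genes, 16.0% were called in the A549-labelled and 50.0% in the H1299-labelled libraries, 25.1% as higher and 24.8% as lower in the H1299-labelled ones. ICAM1, an adhesion molecule for T cells, rose under both labels, to 59.4 ± 1.98 FPKM after miR-29a-3p against 32.5 ± 1.47 FPKM in the A549-labelled controls, and to 12.7 ± 0.183 FPKM against 5.95 ± 0.544 FPKM in the H1299-labelled controls (SD, n = 2 each; adjusted p = 0.0011 and 8.6e-05). NCR3LG1, or B7-H6, which activates natural killer cells, fell by 0.28 (adjusted p = 0.023) and 1.14 (adjusted p = 2.8e-05). NT5E, or CD73, which makes adenosine, averaged 69.6 ± 1.62 FPKM after miR-29a-3p and 16.2 ± 0.557 FPKM in the H1299-labelled controls (SD, n = 2 each), a rise of 2.03 (adjusted p = 8.2e-06). NECTIN4 and CEACAM1 rose in the H1299-labelled libraries by 1.42 (adjusted p = 6.5e-05) and 1.18 (adjusted p = 0.00012).

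Of 8 ligands of the activating receptor NKG2D, 1 rose and 1 fell in the A549-labelled libraries, with a median of 0.06, and 4 rose and 2 fell in the H1299-labelled libraries, with a median of 0.16. The shares called of all tested genes were 16.0% in the A549-labelled and 50.0% in the H1299-labelled libraries. ULBP1 moved in opposite directions. It averaged 3.33 ± 0.0234 FPKM after miR-29a-3p and 2.03 ± 0.294 FPKM in the A549-labelled controls, and 1.35 ± 0.0332 FPKM after miR-29a-3p and 5.42 ± 0.368 FPKM in the H1299-labelled controls (SD, n = 2 each). The log2 fold changes were 0.52 (adjusted p = 0.011) and -1.45 (adjusted p = 4.9e-05), and their difference of 1.97 had an adjusted p of 0.00013. ULBP2 fell by 0.70 in the A549-labelled libraries (adjusted p = 0.032). MICB and ULBP3 rose in the H1299-labelled libraries by 0.96 (adjusted p = 0.00035) and 0.76 (adjusted p = 0.00051), and RAET1L fell by 0.88 (adjusted p = 0.0036).

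Other complement genes were tested beside CD55 and CD59. Of 9 further regulators 4 were tested, and in the H1299-labelled libraries these 4 rose, with a median of 0.73, while 0 changed in the A549-labelled ones, with a median of -0.01. Among all tested genes, 25.1% rose and 24.8% fell in the H1299-labelled libraries, and 16.0% were called in the A549-labelled ones. CD46, another membrane shield, averaged 16.6 ± 0.689 FPKM after miR-29a-3p and 10.9 ± 0.346 FPKM in the H1299-labelled controls (SD, n = 2 each), a rise of 0.56 (adjusted p = 0.00039). VTN and CLU, soluble inhibitors of the terminal complex, rose by 0.91 (adjusted p = 0.00072) and 0.38 (adjusted p = 0.045). Of 11 complement components 7 were tested, of which 4 rose and 1 fell in the H1299-labelled libraries and 1 rose in the A549-labelled ones, beside the same shares of all tested genes. C3, the central component, averaged 176 ± 1.69 FPKM after miR-29a-3p and 84.3 ± 1.51 FPKM in the H1299-labelled controls (SD, n = 2 each; adjusted p = 0.00010), and rose by 0.61 in the A549-labelled libraries (adjusted p = 0.0044). C1S and CFB rose by 0.91 (adjusted p = 0.0032) and 0.87 (adjusted p = 0.00011) in the H1299-labelled libraries, and CFD fell by 1.0 (adjusted p = 0.00032).

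Of 12 genes of proteins known to stabilise, modify or degrade PD-L1 or CD47, 2 rose and 2 fell in the A549-labelled libraries, with a median of 0.03, and 4 rose and 4 fell in the H1299-labelled libraries, with a median of 0.06, where 25.1% of all tested genes rose and 24.8% fell. In the A549-labelled libraries 7.30% of all tested genes rose and 8.66% fell. CMTM6, which keeps PD-L1 at the surface, averaged 14.5 ± 0.00397 FPKM after miR-29a-3p and 20.6 ± 0.857 FPKM in the A549-labelled controls, and 14.1 ± 0.115 FPKM after miR-29a-3p and 11.7 ± 0.555 FPKM in the H1299-labelled controls (SD, n = 2 each; adjusted p = 0.0029 and 0.0081). It fell in the one and rose in the other, and the difference of -0.73 had an adjusted p of 0.00077. COPS5, a deubiquitinase that acts on PD-L1, fell by 0.32 (adjusted p = 0.023) and 0.74 (adjusted p = 0.00022). QPCTL, which modifies CD47 for binding to its receptor, rose by 0.41 in the H1299-labelled libraries (adjusted p = 0.0071), and its relative QPCT rose by 0.34 in the A549-labelled ones (adjusted p = 0.022) and by 0.25 in the H1299-labelled ones (adjusted p = 0.022). HIP1R, which directs PD-L1 to lysosomes, rose by 0.53 in the A549-labelled libraries (adjusted p = 0.0045). The kinase GSK3B fell by 0.56 (adjusted p = 0.0011) and CDK5 rose by 0.50 (adjusted p = 0.0010) in the H1299-labelled libraries.

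**Figure D4:**
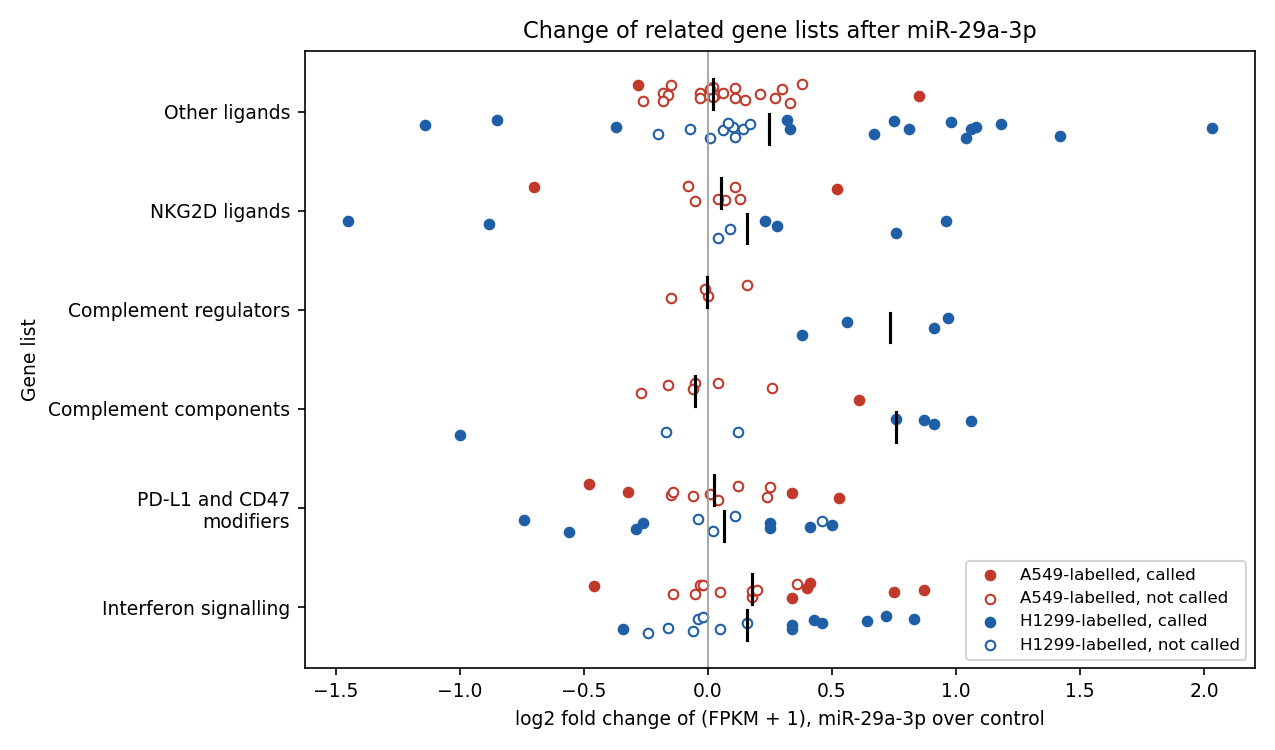
Log2 fold change of (FPKM + 1), miR-29a-3p over control, of each tested gene of 6 related lists, with the A549-labelled libraries above the H1299-labelled ones. Filled points passed an adjusted p under 0.05 in limma, and black bars are list medians. The 4 tested complement regulators are all called higher in the H1299-labelled libraries, with a median of 0.73.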

How the data were processed

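FPKM values per gene and library are what the authors deposited, per the file headers. StringTie and the build GRCh38 are named in the submitters' processing notes, with no version, aligner, annotation or strand setting given in the sources used here. A gene absent from the part of the table for 1 line (27756 genes for A549, 28609 for H1299) counted as 0 there. No value was rescaled.

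Testing covered the 14635 genes that reached 1 FPKM in 2 or more libraries. Limma 3.58.1 (R 4.3.3) was fitted to log2(FPKM + 1) with 4 group means and a variance trend, at 4 residual and 2.36 prior degrees of freedom, and p-values were adjusted by Benjamini-Hochberg over all tested genes. The script was tested on simulated data. An exact permutation test of 2 against 2 cannot go below 0.333, so none was run. Replicates are not stated to be separate cultures, hence p-values reflect the spread between libraries, which may be technical.

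Depth was estimated from the most frequent value of 1 fragment among single-transcript genes at low FPKM. UTRs and positions are from GENCODE 29. The genes and lists were chosen with earlier results of these data known. From each further list, up to 4 called genes per line label with the largest change and at least 1 FPKM in a group were named, and for CD276 and CD55 the 3 nearest profiles. Some genes that this rule picks are not reported here. Alternatives were a pseudocount of 0.1, no filter, a mean of at least 5 FPKM, rescaled libraries, no variance trend, each line alone, a replicate block and each library left out.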

Additional observations from a re-analysis of the deposited data

Results flagged for a closer look

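For 5 genes the response to miR-29a-3p differed between the A549-labelled and H1299-labelled libraries by the test of the difference itself. On the log2 scale, A549-labelled minus H1299-labelled, the differences were -0.34 for PDCD1LG2, 0.79 for PVR, -0.63 for NECTIN2, -0.73 for CD47 and 1.2 for CD55 (limma adjusted p = 0.025, 0.0059, 0.0023, 0.0025 and 0.00082). PVR moved in opposite directions, higher in 2 of 2 A549-labelled and lower in 2 of 2 H1299-labelled miR-29a-3p libraries than in both controls. The difference of PDCD1LG2 was -0.21 (adjusted p = 0.315) with a pseudocount of 0.1, and its call was also lost with no filter (adjusted p = 0.0517) and without any of 6 of the 8 single libraries (adjusted p = 0.0516 to 0.0797).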

How the results depend on the processing

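Of the 8 tested surface genes, the number called in the A549-labelled libraries was 4, against 2 with no filter on low values, 2 at a mean of at least 5 FPKM, where 5 of the genes were tested, and 2 to 5 when 1 library was left out. The number was 6 in the H1299-labelled libraries, with 5 to 6 when 1 library was left out, and 5 for the difference between responses, with 4 to 5. Between the controls it was 7, with 4 at a mean of at least 5 FPKM and 4 to 7 when 1 library was left out. With no filter LGALS9 was tested too, and its response was not called under either label. Between the controls the count with no filter was 7 of 9 genes, though CD274 was not called there (limma adjusted p = 0.094). These counts do not hold the same genes throughout. Among the 8, calls of CD274, CD59 or PVR were gained in some settings. Calls of PVR, NECTIN2, PDCD1LG2, CD276, CD47 or CD274 were lost in others. Leaving out 1 library turned the sign of uncalled changes, which ranged from -0.06 to 0.04 for CD274, from -0.06 to 0.08 for CD47 and from -0.08 to 0.13 for CD55 in the A549-labelled libraries. For CD274 the range was -0.58 to 0.23 in the H1299-labelled libraries and -0.24 to 0.57 for the difference between responses. Over all genes, the 2336 called in the A549-labelled libraries were 1071 with the line alone and 1066 to 1937 with 1 library left out. At a mean of at least 5 FPKM, which leaves fewer genes to test, 3773 genes were called in the H1299-labelled libraries in place of 7312, 2984 in place of 5464 for the difference and 4923 in place of 10941 between controls. Same-numbered libraries did not deviate together (r of -0.04 to 0.06). With a replicate block, 1261 genes were called in the A549-labelled libraries, NECTIN2 there had 0.28 (adjusted p = 0.073), the difference of PDCD1LG2 had an adjusted p of 0.058 and the control difference of PVR one of 0.024. The block changed no other call of the tested surface genes. Depth limits LGALS9, CD274 and PDCD1LG2, which rest on the fewest fragments.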
